A study of Rattus norvegicus with 20 samples.

Results

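The collagen genes measured in rat femur were taken as all probe sets whose single gene symbol is written as Col, a number, the letter a and a number, such as Col1a1. They were 41 of the 14217 genes that the arrays measured with a probe set of a single symbol, and they had 58 of the 31042 probe sets that were not controls. RNA came from 20 rats aged 4 weeks, 5 of each of 4 strains, with 1 array per animal. P rats were bred to prefer alcohol and NP rats to avoid it, and both are inbred. NP.P rats carry the P segment of a chromosome 4 region on the NP background, and P.NP rats carry the NP segment on the P background. Each congenic strain is a single line in its direction, no strain was treated, and the study used male rats. The tissue is the proximal femur per the labels and the femur per the methods. The values are MAS5 signals, linear intensities brought by the authors to an equal trimmed mean over the arrays, and they were compared on the log2 scale.

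Collagens are trimers of long chains wound into a triple helix. Col1a1 and Col1a2 chains make the type I fibrils of bone, which mineral fills, whereas Col2a1, with smaller amounts of the type XI chains Col11a1 and Col11a2, makes the fibrils of cartilage. In a growing femur the growth plate adds type IX collagen to the surface of those fibrils, and its hypertrophic chondrocytes make type X collagen (Col10a1) before bone replaces them. Type IV chains build basement membranes around vessels, muscle fibres and nerves, and type V and VI chains lie in the connective tissue around cells.

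Of the 58 probe sets, 48 for 34 genes had a mean signal at or above the 40th percentile of all probe sets (a signal of 169.7) and were tested with limma among 18625 probe sets in all. Col4a4, Col4a6, Col7a1, Col17a1, Col19a1, Col20a1 and Col23a1 had no probe set above it, and neither did 1 probe set each of Col11a1 and Col12a1. The mean signals of these 10 probe sets ran from 14.6 for Col19a1 to 162 for Col7a1. The arrays held the RNA of bone and of the tissues around it. The osteoblast transcripts Bglap, Ibsp and Spp1 and the cartilage transcripts Acan, Comp and Cnmd passed the same filter, as did 13 of 14 skeletal muscle transcripts with a probe set and 14 of 14 erythroid transcripts. Sost, a transcript of osteocytes, did not pass it. In such bulk RNA, fewer cells of a type and less RNA per cell cannot be told apart. Different probe sets bind with different strength, so no collagen's signal was set against another's. The 5 animals of a strain are the replicates, and their number limits the precision.

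The 5′ ends of 5 collagen genes that recur in the results are shown first, from RefSeq on the build GRCr8, where 32 of the 41 genes matched an entry. The sequences give the context of the probe sets, as promoters were not measured. The first 4 are the 250 bases before the annotated start of a gene, written 5′ to 3′ on the strand of the gene. Col9a1, Col9a2 and Col10a1 fell on 1 array together with other cartilage chains, and Col5a2 separated the backgrounds at 1 probe set. The last is the whole stretch between the starts of Col4a1 and Col4a2, a pair transcribed in opposite directions. Capitals mark, on either strand, the letters TATAAA of the TATA box, the letters CCAAT of the CCAAT box and the letters GGGCGG of the GC box.
Col9a1 (chr9:34081114-34081363, plus strand): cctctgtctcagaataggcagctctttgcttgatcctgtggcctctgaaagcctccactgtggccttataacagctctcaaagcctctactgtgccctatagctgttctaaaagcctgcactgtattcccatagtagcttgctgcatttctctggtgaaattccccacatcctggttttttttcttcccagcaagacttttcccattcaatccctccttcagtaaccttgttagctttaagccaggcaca
Col9a2 (chr5:139892548-139892797, plus strand): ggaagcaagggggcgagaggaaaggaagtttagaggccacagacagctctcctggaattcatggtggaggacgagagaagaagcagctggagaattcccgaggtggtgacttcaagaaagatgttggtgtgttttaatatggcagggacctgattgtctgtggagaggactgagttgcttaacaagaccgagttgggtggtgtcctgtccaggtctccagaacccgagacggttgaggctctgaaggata
Col10a1 (chr20:39737286-39737535, plus strand): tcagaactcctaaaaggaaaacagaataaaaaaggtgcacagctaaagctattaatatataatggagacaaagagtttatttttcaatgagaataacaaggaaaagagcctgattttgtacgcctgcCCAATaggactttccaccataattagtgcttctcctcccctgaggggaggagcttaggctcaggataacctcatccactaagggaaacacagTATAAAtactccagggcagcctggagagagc
Col5a2 (chr9:55090152-55090401, minus strand): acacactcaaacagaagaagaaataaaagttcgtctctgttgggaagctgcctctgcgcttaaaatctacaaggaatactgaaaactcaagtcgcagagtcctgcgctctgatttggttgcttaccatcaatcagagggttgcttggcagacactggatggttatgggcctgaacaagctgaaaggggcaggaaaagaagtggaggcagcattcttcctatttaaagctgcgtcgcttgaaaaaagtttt
Col4a1 and Col4a2 (chr16:84885521-84885596, plus strand): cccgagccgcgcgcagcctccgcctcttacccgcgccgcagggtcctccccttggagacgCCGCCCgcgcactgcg

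Col10a1 held TATAAA 31 bases and CCAAT 123 bases before its start, and the 76 bases between Col4a1 and Col4a2 held GGGCGG on the minus strand. In the same 250 bases of all 27457 promoters, 13.1% held TATAAA, 34.3% held CCAAT and 32.4% held GGGCGG on either strand, against 4, 9 and 18 of the 32 collagen promoters. The letters ACAATG, sought as a SOX motif, were in 10.9% of all promoters and in 1 collagen promoter. The letters TGTGGT, sought as a RUNX motif, were in 14.1% of all and in 2 collagen promoters, and no promoter printed here held either. Of the 41 genes, 0 lie in the transferred region of chromosome 4, taken from Arf5 to Ppp4r2 in the gene order of GRCr8. Col1a2 is on chromosome 4 outside it. Neighbouring pairs in that order include Col4a2 and Col4a1, Col6a1 and Col6a2, and Col3a1 and Col5a2.

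Across the 4 strains, 10 of the 48 collagen probe sets, for 9 genes, differed in the F test of limma at a false discovery rate of 10%. This was 20.8% of the family against 18.2% of all probe sets tested, a share near the background. Between the inbred parents, 2 of 48 were called, against 5.36% of all, with 1 probe set of Col5a2 higher in P rats, against 2.43% of all, and 1 of Col2a1 lower, against 2.94%. In NP.P against NP rats 0 of 48 passed, against 2.30% of all, and in P.NP against P rats 0 of 48 passed, against 0.231% of all. With limma, 2 and 8 of the 48 had an unadjusted p under 0.05 in these comparisons, against 13.1% and 7.70% of all, and the methods' unequal-variance test called 0 of the 48 in both, against 10 and 0 of all 18625. When both strains on the P background were set against both on the NP background, 10 were called, 9 of them higher and 1 lower, against 22.5% of all, with 11.1% higher and 11.3% lower. The test of whether the segment acted alike on both backgrounds called 0 of 48, against 0.317% of all, and 7 had an unadjusted p under 0.05, against 9.71% of all. These comparisons share animals: the NP rats serve P against NP and NP.P against NP, the P rats serve P against NP and P.NP against P, and all 20 serve the background contrast.

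The median difference of the 48 collagen probe sets in the background contrast was 0.11 on the log2 scale, with 32 positive, beside 0.02 for all probe sets tested. It was 0.00 in P against NP, with 24 positive, beside 0.00, and 0.02 in NP.P against NP, with 25 positive, beside -0.01. In P.NP against P it was 0.16, with 40 positive, beside 0.00. P replicate 2 had low cartilage signals, and without this animal the last median was 0.09 with 33 positive. The 9 probe sets called higher on the P background are of types IV, V, VI, XIII, XVI and XXV, and none is of type I, II, III, IX or X. The 14 erythroid transcripts moved the other way: 11 were called lower on the P background and their median was -0.24. Their score, the mean of their centred log2 values, ranged from -0.13 to 0.11 in NP, from 0.13 to 0.29 in NP.P, from -0.26 to -0.09 in P.NP and from -0.23 to -0.03 in P rats. With this score as a covariate in limma, 1 of the 48 collagen probe sets was called in the background contrast, the probe set of Col2a1, with 3.75% of all probe sets called. The F test over the strains then called 2, of Col2a1 and Col16a1, with 4.02% of all probe sets called. The score itself differed between the backgrounds, with all NP.P animals above all P and P.NP animals. A fit with it therefore cannot fully separate the score from the background.

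**Figure D1:**
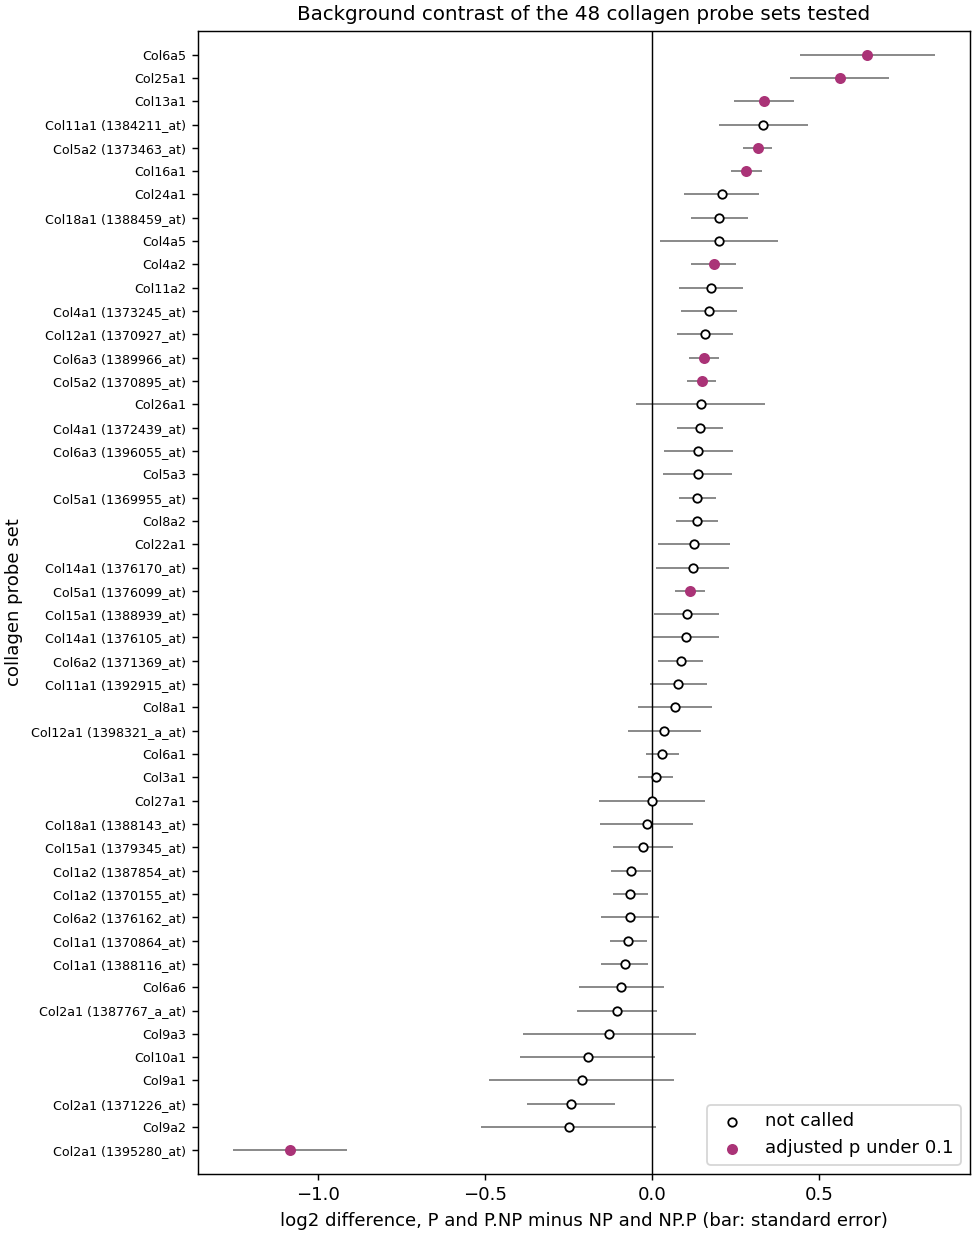
Difference in log2 signal (x axis) between the P background (P and P.NP, 10 arrays) and the NP background (NP and NP.P, 10 arrays) for each of the 48 collagen probe sets tested (y axis), with bars for the standard error. Filled points are the 10 probe sets called at an adjusted p under 0.1, of which 9 lie to the right of 0 and 1, of Col2a1, lies far to the left at -1.08.

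Col1a1 and Col1a2, the type I chains of bone matrix, did not pass in any comparison. The Col1a1 signals were 60077, 87080.4, 79818, 80247 and 78697 in NP rats and 77324, 72854, 91269.6, 72821 and 84669.9 in NP.P rats. They were 80460, 74223, 76140.5, 65185 and 69040.3 in P.NP rats and 64339, 73049, 78999, 78248 and 79421 in P rats. Col1a2 signals were 65886, 90616, 86481, 85276 and 89332 in NP rats and 83393, 81379, 88866, 84091 and 89848 in NP.P rats. They were 86588, 82709, 81748, 71924 and 74824 in P.NP rats and 73086, 79909, 85054, 88777 and 82518 in P rats. NP replicate 1 was the lowest animal for both genes, and the 4 strains overlapped throughout. P over NP was 0.974-fold for Col1a1 with a 95% interval of 0.844 to 1.12, and 0.985-fold for Col1a2 with an interval of 0.871 to 1.11. In NP.P against NP the intervals were 0.899 to 1.2 and 0.911 to 1.16, all of them spanning 1. Both genes sat near the highest signal of all arrays, 109499, and compression of differences at that end of the scale was not tested.

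Col3a1, the type III chain of soft connective tissue and vessel walls, was not called either. The Col3a1 signals were 44544, 60297, 48946, 48919 and 49904 in NP rats and 51058, 50486, 54499, 49909 and 49781 in NP.P rats. They were 56181, 54452, 51540.4, 50666 and 48486 in P.NP rats and 45106, 51721, 51782, 51949.6 and 49456 in P rats. The strains overlapped, with NP replicate 2 the highest of all animals and NP replicate 1 the lowest. The background contrast was 0.01 (adjusted p = 0.923) with a 95% interval of 0.933 to 1.09-fold, and it was called after quantile normalization (0.11, adjusted p = 0.0876).

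Col5a2 encodes a type V chain that joins type I fibrils and limits their width. Its dimmer probe set, 1373463_at, separated the backgrounds most clearly among the collagen probe sets. The Col5a2 signals at probe set 1373463_at were 25197, 22060.4, 21584, 22401 and 24596 in NP rats and 23625, 23013, 22871, 21180.3 and 22235 in NP.P rats. They were 28655, 28977, 30912, 28826 and 27911 in P.NP rats and 28706, 27611, 25532, 29219 and 28156 in P rats. All 10 animals on the P background lay above all 10 on the NP background, which was so for 1 of the 48 collagen probe sets and for 1.83% of all probe sets. The difference was 0.32 on the log2 scale (SE 0.04, adjusted p = 4.27e-05) in the background contrast and 0.27 on the log2 scale (SE 0.06, adjusted p = 0.0152) in P against NP. Neither congenic strain was called against its parent, at -0.03 (adjusted p = 0.864) in NP.P against NP and 0.06 (adjusted p = 0.903) in P.NP against P. With the erythroid score as a covariate the background difference was 0.18 (adjusted p = 0.208), and with only NP and P in the fit the parental difference lost its call (adjusted p = 0.133). The brighter Col5a2 probe set, 1370895_at, gave 33755, 35645, 38100.4, 35028 and 40657 in NP rats and 38191, 36285, 35794, 34832 and 37178 in NP.P rats. They were 42465, 41712, 41872, 41511 and 38504 in P.NP rats and 40926, 37471, 39929, 41774 and 38317 in P rats. There the backgrounds overlapped, the background contrast was 0.15 on the log2 scale (SE 0.04, adjusted p = 0.0239), and P minus NP was not called.

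Col5a1, which pairs with Col5a2 in type V trimers, was high in P.NP rats. The Col5a1 signals at probe set 1369955_at were 16542, 16174, 17559, 14399.5 and 19419 in NP rats and 17091, 16968, 16458, 14094 and 16524 in NP.P rats. They were 20117, 19884, 19763, 20899 and 20002 in P.NP rats and 16518, 16089, 17210, 17168 and 14302 in P rats. All 5 P.NP animals lay above the other 15, while NP, NP.P and P rats overlapped. P.NP minus P was 0.31 on the log2 scale (SE 0.08, adjusted p = 0.191), and the probe set was called in the F test over strains (adjusted p = 0.023). The second Col5a1 probe set, 1376099_at, gave 12413, 10933, 11880.2, 12054 and 12877 in NP rats and 12139, 11304, 10905, 10400.3 and 11262 in NP.P rats. They were 13614, 12744, 12362, 13623 and 14479 in P.NP rats and 12022, 11283, 11948, 11363 and 12308 in P rats. It was called in the F test (adjusted p = 0.0483) and in the background contrast at 0.11 on the log2 scale (SE 0.04, adjusted p = 0.0947), near the threshold, and it lost the latter call on leaving out any of 14 of the 20 animals. Col5a3, the third type V chain, followed. The Col5a3 signals were 1647, 1786, 1084, 1332 and 1359 in NP rats and 1329, 1519.6, 1464, 1395 and 1384 in NP.P rats. They were 1712, 2223, 1498, 1901 and 2236 in P.NP rats and 965, 1232, 1233, 1475 and 1612 in P rats. P.NP rats were the highest on average but overlapped P rats. P.NP minus P was 0.56 on the log2 scale (SE 0.15, adjusted p = 0.218), and the F test over strains passed (adjusted p = 0.0545). Col24a1, not a type V chain but another fibril-forming chain of bone and soft tissue, did not pass in any comparison. With the replicate block its background contrast did (0.21, adjusted p = 0.0728).

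**Figure D2:**
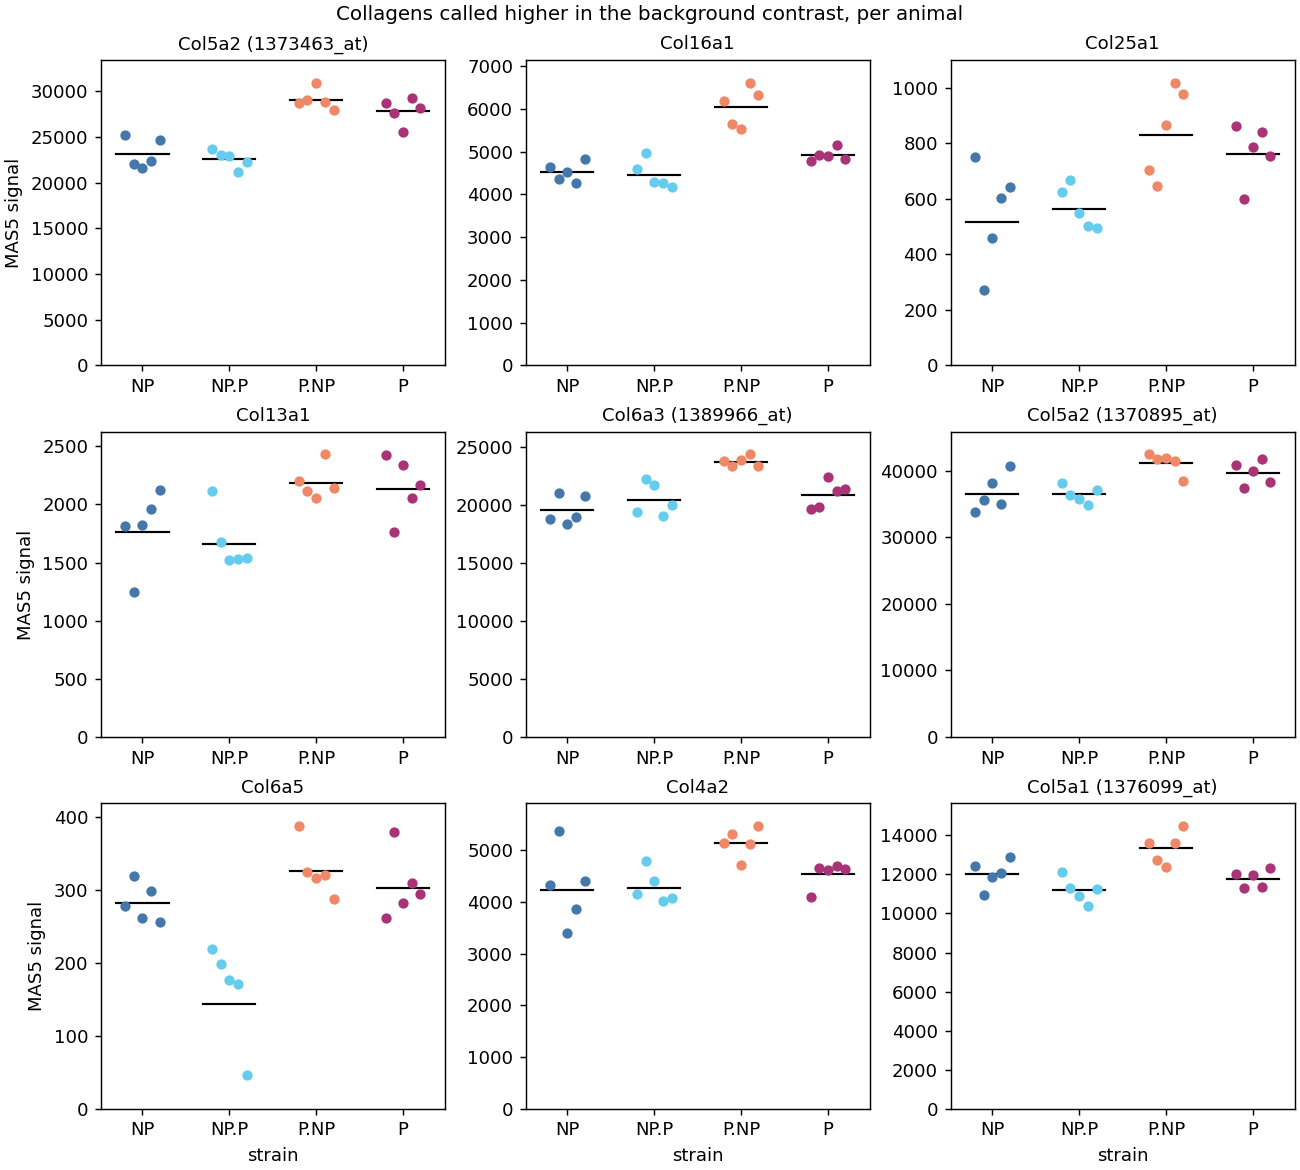
MAS5 signal (y axis, linear from 0) of each of the 5 animals of the 4 strains (x axis) for the 9 collagen probe sets called higher on the P background, with horizontal lines for the mean of the log2 values. Col5a2 at 1373463_at is the only panel without overlap between backgrounds, Col16a1 and Col6a3 are highest in P.NP rats, and Col6a5 is lowest in NP.P rats.

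Type VI collagen forms beaded filaments around cells of muscle, cartilage and connective tissue, and Col6a3 is its long chain. The Col6a3 signals were 18811, 20991, 18362, 18934 and 20787 in NP rats and 19395, 22233, 21682, 19006 and 19992 in NP.P rats. They were 23769.7, 23390.4, 23846, 24357 and 23327 in P.NP rats and 19651, 19838, 22399, 21160.3 and 21357 in P rats. As for Col5a1, all 5 P.NP animals lay above the other 15, and the other strains overlapped. The background contrast was 0.16 on the log2 scale (SE 0.04, adjusted p = 0.022) and P.NP minus P was 0.19 (adjusted p = 0.404). A second, dim probe set of Col6a3 gave 0.14 (adjusted p = 0.403) in the background contrast. Col6a5, a long chain that can stand in for Col6a3, had a different pattern. The Col6a5 signals were 279, 319.6, 263, 299.6 and 256 in NP rats and 219.5, 199, 177, 171 and 46.7 in NP.P rats. They were 388, 325, 316, 321 and 288 in P.NP rats and 262, 379.9, 283, 311 and 295 in P rats. All 5 NP.P animals lay below the other 15, and NP.P replicate 5, at 46.7, lay far below the rest and under the filter's signal. The background contrast was 0.64 on the log2 scale (SE 0.20, adjusted p = 0.0352), but P minus NP was 0.10 (adjusted p = 0.893). NP.P minus NP was -0.97 on the log2 scale (SE 0.28, adjusted p = 0.113), and it passed with an offset added before the log (adjusted p = 0.0894) and with a mean-variance trend (adjusted p = 0.0893). Col6a1, Col6a2 and Col6a6 did not pass in any comparison.

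Col16a1, a chain that decorates fibrils in several tissues, was also high in P.NP rats. The Col16a1 signals were 4651, 4369.9, 4534, 4274 and 4832 in NP rats and 4607, 4975, 4300, 4272 and 4169 in NP.P rats. They were 6197, 5643, 5530.1, 6616 and 6324 in P.NP rats and 4778, 4932, 4898, 5165 and 4840.02 in P rats. All 5 P.NP animals lay above the other 15, and the other strains overlapped. The F test over strains gave an adjusted p of 3.63e-04 and the background contrast was 0.28 on the log2 scale (SE 0.05, adjusted p = 3.50e-04). P.NP minus P was 0.30 on the log2 scale (SE 0.07, adjusted p = 0.102), just outside the threshold, and was called with a filter at the 60th percentile (adjusted p = 0.0571) or with a mean-variance trend (adjusted p = 0.0348). P minus NP was 0.12 (adjusted p = 0.394). Col12a1, Col14a1 and Col22a1, the other chains of this kind tested, did not pass, although all 6 probe sets of the class were positive in P.NP against P, with a median of 0.24.

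Col13a1 and Col25a1 encode collagens that span the cell membrane, Col13a1 being known at neuromuscular junctions and cell adhesions and Col25a1 in muscle and neurons. The Col13a1 signals were 1813, 1252, 1824, 1959 and 2124 in NP rats and 2112, 1674, 1519, 1530.5 and 1541 in NP.P rats. They were 2199, 2119, 2054, 2431 and 2145 in P.NP rats and 2429, 1762, 2335, 2053 and 2166 in P rats. P.NP and P rats were mostly above NP and NP.P rats, with overlap, and the background contrast was 0.33 on the log2 scale (SE 0.09, adjusted p = 0.0156). The Col25a1 signals were 752, 272, 461, 604 and 642 in NP rats and 626, 669, 550.2, 503 and 494 in NP.P rats. They were 705, 647, 865, 1019 and 978 in P.NP rats and 863, 602, 786, 843 and 756 in P rats. Again the P background was higher with overlap, and NP replicate 2 was the lowest of all. The background contrast was 0.56 on the log2 scale (SE 0.15, adjusted p = 0.0141), a 1.48-fold difference with an interval of 1.19 to 1.83. With the erythroid score as a covariate the differences were -0.03 for Col13a1 and -0.02 for Col25a1, neither called. P minus NP was 0.27 (adjusted p = 0.296) for Col13a1 and 0.57 (adjusted p = 0.171) for Col25a1. With the cartilage marker score as a covariate in limma, Col25a1 was called between the parents (0.61, adjusted p = 0.0778).

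Col4a1 and Col4a2, the chains of nearly all basement membranes, share the short stretch printed above. The Col4a1 signals were 6044, 7809.6, 5451, 4600 and 5133 in NP rats and 5945, 6159, 6138, 6180.4 and 5471 in NP.P rats. They were 6145, 8351, 7326, 7114 and 7222 in P.NP rats and 5067, 6618, 6229, 6609 and 5552 in P rats. The strains overlapped. P.NP rats were the highest on average, and P.NP minus P was 0.27 on the log2 scale (SE 0.12, adjusted p = 0.615), with the second Col4a1 probe set at 0.21. The Col4a2 signals were 4332, 5377, 3407, 3875 and 4412 in NP rats and 4157, 4796, 4413, 4018 and 4075 in NP.P rats. They were 5144, 5312, 4712, 5133 and 5474 in P.NP rats and 4094, 4655, 4631, 4692 and 4643 in P rats. All 5 P.NP animals lay above all 5 P animals, but NP replicate 2 and NP.P replicate 2 lay among the P.NP animals. The background contrast of Col4a2 was 0.18 on the log2 scale (SE 0.07, adjusted p = 0.0705), and it lost its call on leaving out any of 10 of the 20 animals. P.NP minus P was 0.18 (adjusted p = 0.697). Col4a5 did not pass in any comparison.

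The type IX and X chains of cartilage were low in single animals. Col9a1, a chain of the type IX collagen that coats type II fibrils, was the clearest case. The Col9a1 signals were 6924, 4285, 7961, 8615 and 10547 in NP rats and 8004, 9397, 6082, 6780.5 and 10150 in NP.P rats. They were 8265, 4871, 7270.5, 8657 and 8993 in P.NP rats and 7463, 1432, 9837, 8380.3 and 7774 in P rats. P replicate 2 lay far below every other animal, and NP replicate 2 and P.NP replicate 2 were the lowest of their strains. Otherwise the strains overlapped. Col9a1 was 5.81-fold lower in P replicate 2 than in the other P rats, Col9a3 5.04-fold and Col9a2 4.54-fold. Col10a1, the hypertrophic cartilage chain, showed the same animals. The Col10a1 signals were 27074, 25159.9, 38118, 36083 and 37496 in NP rats and 31751, 36379.5, 31320.4, 32974 and 41116 in NP.P rats. They were 36196, 25456, 33104, 33051 and 34796 in P.NP rats and 28932, 8945, 41786, 35302 and 33559.8 in P rats. P replicate 2 was again the lowest of the 20, and NP replicate 2 and P.NP replicate 2 the lowest of their strains. Col10a1 was 3.87-fold lower in P replicate 2 than in the other P rats, Col27a1 2.47-fold, Col2a1 2.04-fold, Col11a2 1.49-fold and Col11a1 1.41-fold. Col1a1 and Col1a2 were each 1.03-fold lower there. Some chains of other classes fell as well, Col22a1 1.44-fold, Col25a1 1.35-fold and Col13a1 1.27-fold. Col18a1 was 1.89-fold and 1.11-fold lower there at its 2 probe sets, whereas Col4a5 was higher by 0.81 on the log2 scale. Markers of cartilage other than collagens moved with the cartilage chains. The score of 15 such genes was -1.27 in P replicate 2, -0.54 in NP replicate 2 and -0.34 in P.NP replicate 2, the lowest 3 of the 20 arrays, but 0.20 in NP.P replicate 2. The skeletal muscle score of 13 genes was 0.38, 0.42 and 0.37 in the same 3 arrays, the highest of the 20. The part of these tissues in the collagen signals was not tested.

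Strain differences in the type IX and X chains turned with that animal. P minus NP was -0.33 for Col9a1, -0.35 for Col9a2, -0.28 for Col9a3 and -0.29 for Col10a1, and without P replicate 2 it was 0.18, 0.087, 0.19 and 0.099. P.NP minus P was 0.35, 0.35, 0.45 and 0.29 for the same genes, and -0.16, -0.085, -0.018 and -0.10 without it. In none of these was the adjusted p of limma under the threshold. For Col9a1 the 95% interval of P over NP ran from 0.451 to 1.4-fold and for Col10a1 from 0.539 to 1.24-fold, and both intervals spanned 1. Col11a1, a type XI chain of cartilage fibrils, fell less. The Col11a1 signals were 21843, 19573, 25999.9, 24836 and 32053 in NP rats and 24932, 24332, 21324, 22037 and 25496 in NP.P rats. They were 26922, 24462, 23752, 27905 and 27442 in P.NP rats and 27922, 18729, 26796, 26036 and 25159.7 in P rats. P replicate 2 was the lowest of all animals, and the strains overlapped. The background contrast was 0.08 (adjusted p = 0.584), and a second probe set gave 0.33 (adjusted p = 0.101). The second probe set was called higher on the P background under each of 6 alternatives: with the cartilage marker score as a covariate (0.37, adjusted p = 0.0244), a mean-variance trend (adjusted p = 0.065), a filter at the 60th percentile (adjusted p = 0.0686), the replicate block (adjusted p = 0.0942), quantile normalization (adjusted p = 0.0949) and an offset (adjusted p = 0.0979). Col11a2, another type XI chain, gave 0.18 (adjusted p = 0.225), and 0.21 with the cartilage score as a covariate (adjusted p = 0.0307). Col27a1, a further fibril chain of cartilage, did not pass.

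**Figure D3:**
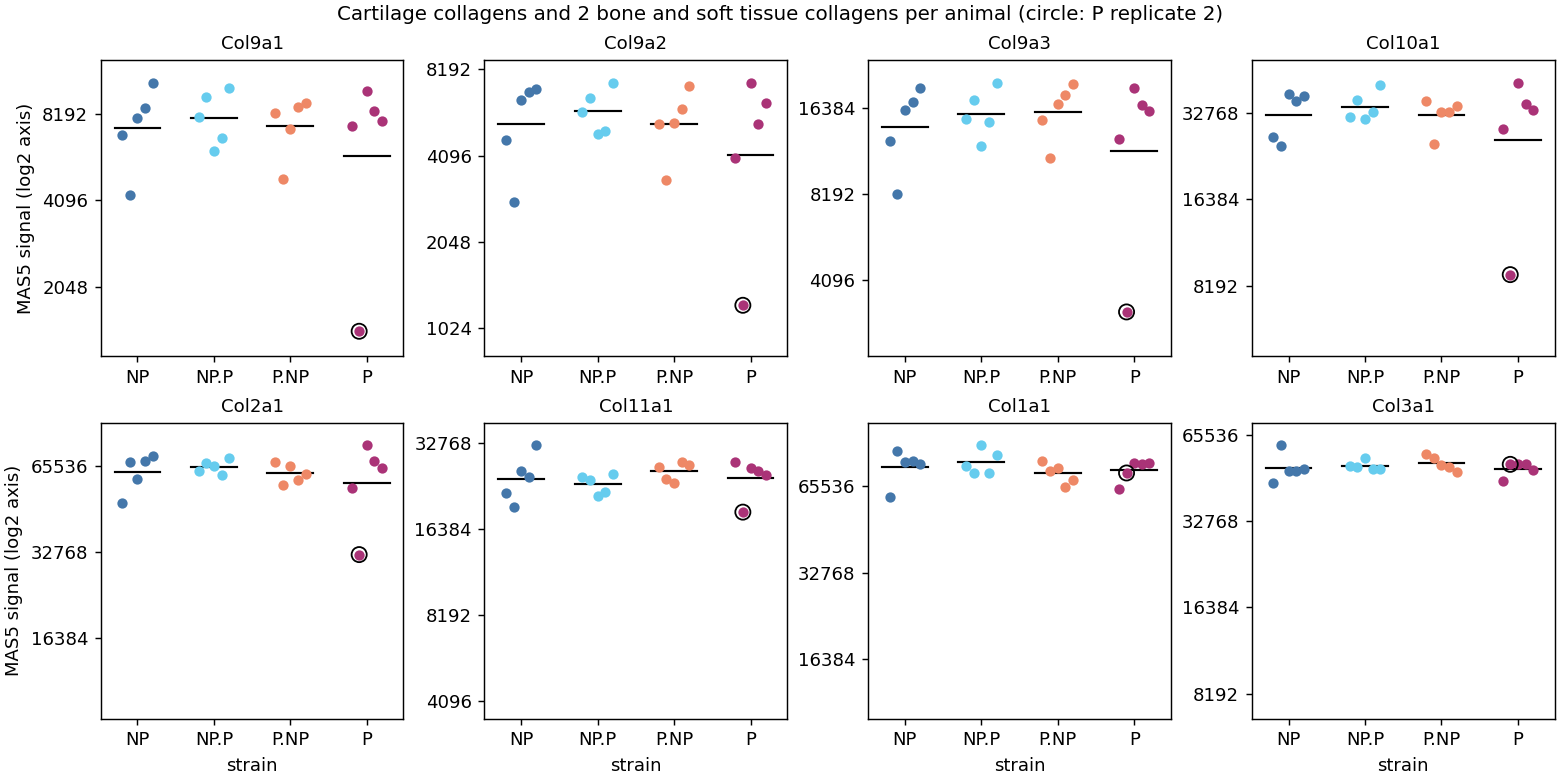
MAS5 signal (y axis, log2 scale, each panel spanning the same range of folds) of each of the 5 animals of the 4 strains (x axis) for 6 cartilage collagens and for Col1a1 and Col3a1, with horizontal lines for the mean of the log2 values and a circle around P replicate 2. This animal lies far below the others for Col9a1, Col9a2, Col9a3 and Col10a1, less so for Col2a1 and Col11a1, and among the others for Col1a1 and Col3a1.

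Col2a1, the main fibril chain of cartilage, gave different background contrasts at its 3 probe sets. P replicate 2, low for the type IX chains, was the lowest of all animals at all 3. NP replicate 2 was the lowest NP rat at 1371226_at and 1395280_at, but not at the brightest probe set, 1387767_a_at. The Col2a1 signals there were 48775, 67787, 58780.4, 68299 and 70720.4 in NP rats and 62876, 66759, 65568, 60614 and 69829 in NP.P rats. They were 67755, 56247, 65252, 58330.3 and 61478 in P.NP rats and 54735, 32096, 77265, 67856 and 64413 in P rats. The strains overlapped, and the background contrast was -0.10 (adjusted p = 0.598). At 1371226_at it was -0.24 (adjusted p = 0.23). The Col2a1 signals at the dim probe set 1395280_at were 953, 703, 1305, 1359.9 and 1691 in NP rats and 2280, 1673, 923, 1205 and 1433 in NP.P rats. They were 838, 653, 778, 614 and 665 in P.NP rats and 639, 342, 599, 494 and 595 in P rats. All 5 P rats lay below all 5 NP rats, and the P background was lower than the NP background with overlap only at NP replicate 2. The difference was -1.08 on the log2 scale (SE 0.17, adjusted p = 1.93e-04) in the background contrast and -1.14 on the log2 scale (SE 0.24, adjusted p = 0.00796) in P against NP. In fold terms the P background had 0.472 of the NP signal with an interval of 0.369 to 0.604, against 0.782 to 1.11 at the brightest probe set. With the erythroid score as a covariate the difference was -1.52 (SE 0.31, adjusted p = 0.00963). The probe table gives this probe set the symbol alone, without an accession, and the probe sets of 1 gene disagree, so the difference is that of the probe set.

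**Figure D4:**
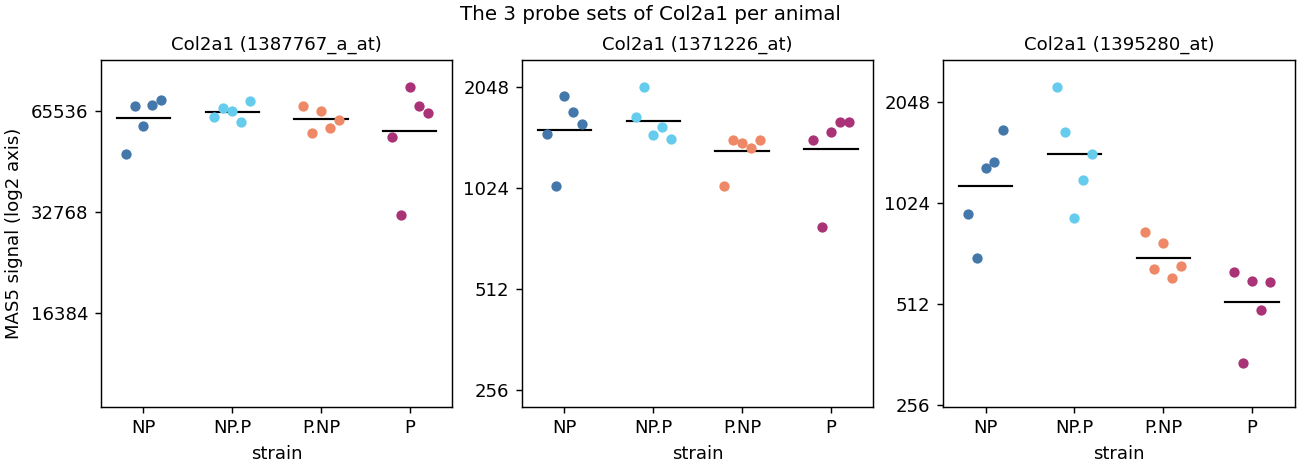
MAS5 signal (y axis, log2 scale, each panel spanning the same range of folds) of each of the 5 animals of the 4 strains (x axis) at the 3 probe sets of Col2a1, with horizontal lines for the mean of the log2 values. At 1395280_at all 5 P animals lie below all 5 NP animals. The background difference there was -1.08, against -0.10 and -0.24 at the others.

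Genes that fold, export, trim, bind and degrade collagen were read from lists of 6 kinds. Of the 52 genes tested, each read at its brightest probe set, 14 were called higher and 0 lower on the P background, or 26.9%. Of all probe sets tested, not only the brightest of each gene, 11.1% were called higher, so the shares are of unlike units. The median of the 52 genes was 0.10. Lox, which crosslinks collagen, differed by 0.35 (adjusted p = 0.00603), Loxl1, a related enzyme, by 0.26 (adjusted p = 0.0214), and Bmp1, which trims procollagen ends, by 0.25 (adjusted p = 0.0489). Ddr2, a collagen receptor, differed by 0.23 (adjusted p = 0.00346), and the collagen-cutting Mmp2 and Mmp14 by 0.25 and 0.19 (adjusted p = 0.00482 and 0.048). Of 17 genes that fold and hydroxylate collagen, 2 were called, P4ha1 and P3h3, and 2 of 7 secretion genes, Sec24d and Trappc2. In P against NP, NP.P against NP and P.NP against P, limma called 0 of the 52, against 5.36%, 2.30% and 0.231% of all probe sets. In NP.P against NP and P.NP against P, 4 and 7 of the 52 had an unadjusted p under 0.05. Of all probe sets, 13.1% and 7.70% had such a p in these comparisons. In P against NP 3 of the 52 did, a count without a share over all probe sets beside it. Among cell markers in the background contrast, 5 of 13 periosteum, tendon and fibroblast genes were higher and 0 lower, Fbn1 by 0.54 and Postn by 0.45. For pericytes and smooth muscle 3 of 7 were higher and 0 lower, for osteoblasts 2 of 9 higher and 0 lower, and for cartilage 0 of 15 were called. Skeletal muscle had 1 of 13 higher, endothelium 2 higher and 1 lower of 8, and adipocytes 1 higher and 3 lower of 7. Of 3 Schwann cell and nerve genes tested 1 was lower, Mbp, a myelin protein, at -0.31 (adjusted p = 0.0594), and Sox10, Nefl and Nefm did not pass the filter. The median differences were 0.11 for fibroblast, 0.20 for pericyte and smooth muscle, 0.13 for osteoblast, 0.10 for endothelial and 0.09 for skeletal muscle markers. These lay in the direction of most called collagens. Dcn, Lum, Ogn, Kera and Aspn are on the fibroblast list and also on a list of collagen-binding genes above. Fmod is on the latter and on the cartilage list, so the marker and pathway counts overlap in part. Medians were -0.24 for erythroid, -0.17 for adipocyte, -0.14 for cartilage and -0.04 for Schwann cell and nerve markers. The part of any of these cells in the collagen differences was not tested, as the erythroid covariate above cannot be fully separated from the background.

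Whether collagens tracked cell markers from animal to animal was asked with 6 pairs over the 20 arrays, after each strain's mean was removed, with permutation within strains and adjustment over the 6. Col10a1 followed Ihh, the signal of prehypertrophic chondrocytes, with Pearson's r = 0.93 (permutation p = 1e-05, adjusted 3e-05) and Spearman's rho = 0.91 (permutation p = 1e-05, adjusted 6e-05), where 1e-05 is the smallest p the permutations can give. Without the 2 animals farthest from the median of Ihh, r was 0.86. Here and below, r without 2 animals kept the strain means of all 20 arrays, while r without 1 animal used means taken again. Col2a1 with Acan, the main cartilage proteoglycan, gave r = 0.74 (permutation p = 0.0357, adjusted 0.0536) and rho = 0.56 (permutation p = 0.0304, adjusted 0.0456). That relation rested on P replicate 2, since r was 0.29 without it. The r of 0.61 without both NP replicate 2 and P replicate 2 kept strain means that include them. It is thus not comparable with the r of 0.29. Col3a1 followed Dcn, a proteoglycan of fibroblasts, with r = 0.71 (permutation p = 0.00386, adjusted 0.00772) and rho = 0.68 (permutation p = 0.00141, adjusted 0.00282), and r was 0.63 without the 2 farthest animals. Col4a1 with Pecam1, an endothelial marker, gave r = 0.40 (permutation p = 0.106, adjusted 0.127) and rho = 0.36 (permutation p = 0.152, adjusted 0.182), with r = 0.53 without the 2 farthest animals and 0.19 without NP replicate 2. Col1a1 with Ibsp, an osteoblast marker, gave r = -0.08 (permutation p = 0.787, adjusted 0.787) and rho = 0.0045 (permutation p = 0.988, adjusted 0.988), with r = 0.12 without the 2 farthest. Col1a1 and Col1a2 moved together with r = 0.92 (permutation p = 1e-05, adjusted 3e-05) and rho = 0.81 (permutation p = 8e-05, adjusted 2.4e-04), and r was 0.85 without NP replicate 1 and P replicate 1. After quantile normalization this last r was -0.48, so it did not hold under that setting, and the cause of the change was not tested.

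**Figure D5:**
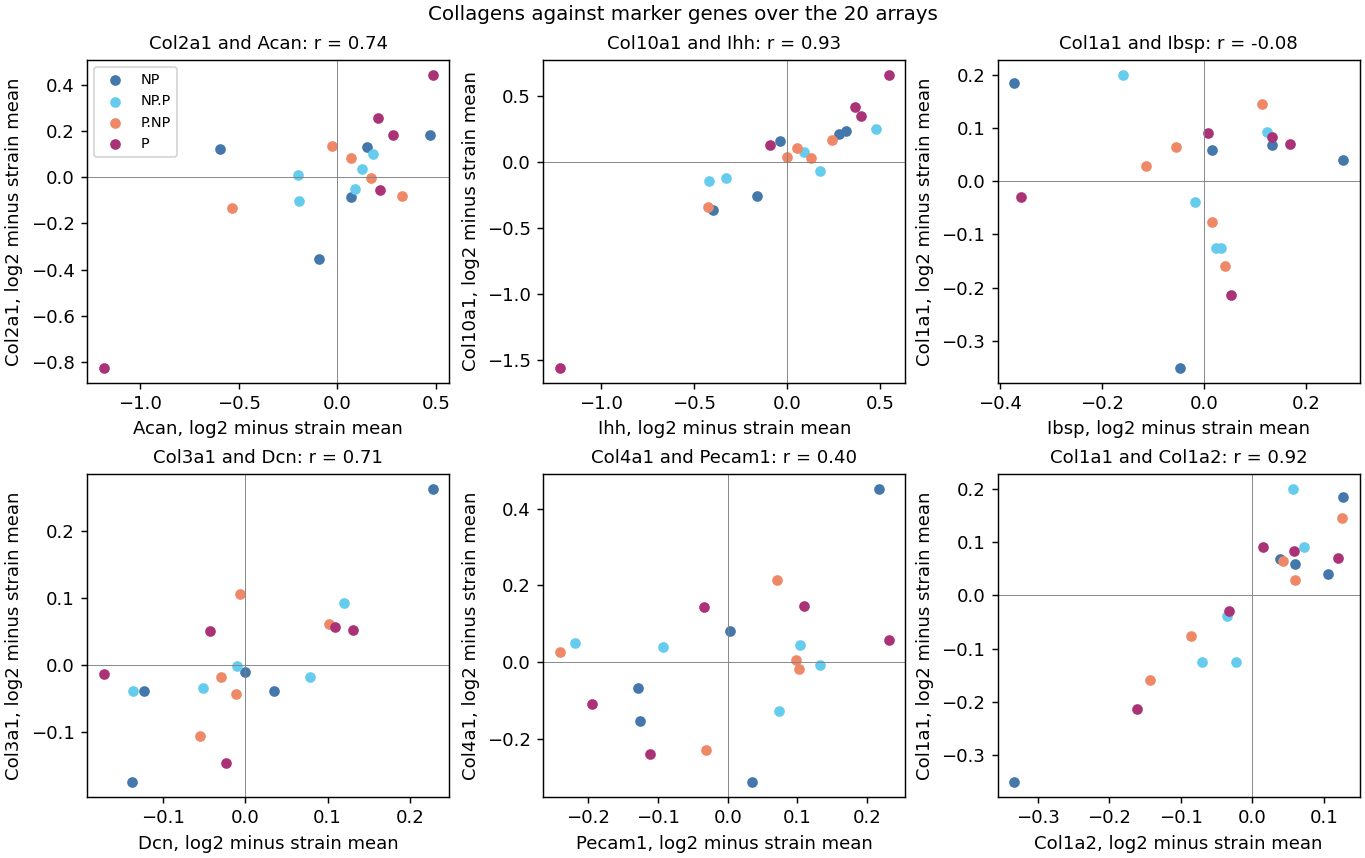
Log2 signal minus the strain mean of a collagen (y axis) against that of a marker gene (x axis) over the 20 arrays, coloured by strain, for the 6 pairs. The point at the lower left of the Col10a1 and Ihh panel and of the Col2a1 and Acan panel is P replicate 2, and the points of Col1a1 and Ibsp scatter with r = -0.08.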

How the data were processed

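Femur RNA of 20 rats was hybridized to Affymetrix rat genome arrays, 1 array per animal. The authors deposited MAS5 signals, linear intensities scaled to a 2% trimmed mean of about 1000.3 on every array. The methods also describe robust multichip averages and calls of detection, not used here, and the arrays carry no read depth. Signals under 1 (190 values) were set to 1 and taken to log2. Median signals ranged from 292 to 322 and the GAPDH 3′ to 5′ ratio from 1.03 to 1.15. Probe sets at or above the 40th percentile of the mean were fitted over all 20 arrays with 4 strain means in limma 3.58.1 (R 4.3.3), which gave 16 residual degrees of freedom and 2.78 more from the prior, and p values were adjusted by Benjamini-Hochberg over 18625 probe sets at a false discovery rate of 10%. Intervals are 95% intervals of that fit.

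Groups came from the labels. Each gene was represented by its brightest probe set on average, and others are given where they disagree. Animal values are given for Col1a1, Col1a2, Col2a1, Col3a1, Col4a1, Col4a2, Col9a1, Col10a1 and Col11a1 and for each other collagen gene called in any of the 6 tests. Collagens, marker and pathway lists, pairs and alternatives were chosen with earlier results of these data known. The fit was checked on simulated data. Permutations used Python 3.11.15 and numpy 2.4.6, and figures matplotlib 3.10.9.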

Additional observations from a re-analysis of the deposited data

Results flagged for a closer look

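In each strain of 5 animals, the gap between an extreme animal and its nearest neighbour was set against the strain's range. This was done for the probe sets at which the 17 named genes were read and for their called probe sets. Of 80 groups, 11 exceeded the 95% critical value, which chance exceeds in about 5% of independent groups. The groups share the same animals and some probe sets were chosen as called, so the count cannot be weighed against that share. P replicate 2 stood apart for Col9a1 (1432), Col10a1 (8945) and Col11a1 (18729), and P.NP replicate 2 for Col10a1 (25456), all low. NP replicate 1 was low for Col1a1 (60077) and Col1a2 (65886), and P replicate 1 for Col4a2 (4094). NP.P replicate 3 was high for Col3a1 (54499). Low values also stood apart for Col5a2 in P.NP replicate 5 (38504 at 1370895_at), for Col6a5 in NP.P replicate 5 (46.7) and for Col5a1 in NP.P replicate 4 (14094 at 1369955_at). The segment's effect did not pass limma's test of a difference between backgrounds for any of the 48 collagen probe sets.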

How the results depend on the processing

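Counts of called collagen probe sets out of 48 were recomputed under each alternative. The share of all probe sets called also depends on the setting and is not given beside them. A change in these counts is therefore not read as particular to collagens. The F test over strains called 10, and 6 with no filter and 2 with the erythroid score as a covariate. The background contrast called 10, and 1 with that covariate, and between 8 and 13 under the other settings. P against NP called 2, and 1 with only the 2 strains in the fit. With the cartilage marker score as a covariate it called Col25a1 as well. NP.P against NP called 0, and 1 (Col6a5) with an offset of 21.7 before the log, with a mean-variance trend and with the replicate block. P.NP against P called 0, and 1 (Col16a1) with a filter at the 60th percentile and 2 (Col16a1 and Col5a1) with a mean-variance trend. Same-numbered replicates correlated between -0.09 and 0.33 in their deviations from the strain mean over 30 pairs, and the 3 highest (0.26, 0.30 and 0.33) were among NP, P.NP and P replicate 2, the 3 arrays of lowest cartilage score. As no replicate number had all its pairs over 0.1, the numbers were not taken to pair animals. The replicate block gave 11, 2, 1, 0, 13 and 0 calls for the F test, P against NP, NP.P against NP, P.NP against P, the background contrast and the interaction. Leaving out each animal in turn gave 6 to 16 for the F test (16 without NP replicate 2, 6 without P.NP replicate 4), 2 to 3 for P against NP, 8 to 13 for the background contrast and 0 to 0 for the interaction. It gave 0 to 1 for NP.P against NP (1 without NP.P replicate 1 or 5) and 0 to 1 for P.NP against P (1 without NP.P replicate 2 or P.NP replicate 3). With the erythroid covariate the background differences of Col5a1, Col13a1 and Col25a1 were -0.010, -0.030 and -0.016. Leaving out each animal, P minus NP ran from -0.52 to 0.18 for Col9a1, from -0.57 to 0.087 for Col9a2, from -0.47 to 0.19 for Col9a3 and from -0.46 to 0.099 for Col10a1, and P.NP minus P from -0.16 to 0.53, from -0.085 to 0.56, from -0.018 to 0.63 and from -0.10 to 0.46 for the same genes, each turned only without P replicate 2. Without the 3 arrays of lowest cartilage score, a setting chosen after the data were seen, P minus NP was 0.0092 for Col10a1 and P.NP minus P was -0.0080 for Col9a1 and -0.014 for Col10a1, and the counts were 11, 2, 0, 0, 13 and 0 in the order given for the replicate block. In the relations over arrays, the same setting gave r = 0.53 for Col2a1 with Acan, 0.21 for Col1a1 with Ibsp and 0.081 for Col4a1 with Pecam1. Quantile normalization gave -0.34 for Col1a1 with Ibsp and -0.48 for Col1a1 with Col1a2. Leaving out each animal gave r from 0.29 to 0.86 for Col2a1 with Acan, 0.88 to 0.95 for Col10a1 with Ihh, -0.17 to 0.16 for Col1a1 with Ibsp (positive without NP replicate 2 or NP.P replicate 3), 0.53 to 0.77 for Col3a1 with Dcn, 0.19 to 0.48 for Col4a1 with Pecam1 and 0.87 to 0.95 for Col1a1 with Col1a2. The causes of these changes were not tested.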
